A study of Mus musculus with 2 samples.

Results

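Choroid plexus bins were followed in 2 coronal brain sections of mice with a controlled cortical impact (CCI), a standardised contusion made by a piston through an opened skull. They were selected by measured expression: among bins of 16 µm with at least 100 UMIs (unique molecular identifiers, each standing for 1 captured molecule), a member had Ttr at no less than 2% of its UMIs and at least 2 UMIs of Folr1, Kl, Clic6, Kcnj13, Calml4 and Otx2 summed over its 3 by 3 block of bins. By this rule 2633 of 222933 bins were members, 1286 of 119617 in the section at 3 days and 1347 of 103316 in the section at 28 days. The 7 genes of the rule were left out of every total and result that follows, apart from the description of the selection itself.

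Both sections came from male C57Bl6 mice whose age the labels give as 3 months, which was the age at impact per the study's methods, and 1 section of 1 animal was read at each time after CCI. The impact was made over the right parietal lobe after a bone flap had been opened, and both brains were perfusion-fixed, embedded in paraffin and read with the Visium HD mouse probe set. No sham or uninjured section was analysed here, and injury, animal, section plane and time after CCI cannot be told apart in any comparison between the sections. A bin covers 16 by 16 µm and may mix RNA of neighbouring cells, and bins of 1 section share an animal, so no p-value was computed. Levels are given as CPM, which scale the UMIs outside the 7 rule genes to a total of 1000000. Differences are log2 ratios of summed UMIs with a pseudocount of 0.5 UMI, and each interval is an exact 95% interval of the ratio that covers counting error only. A gene was counted as higher or lower where its ratio was at least 2-fold. Levels of different genes were not compared, since each gene is read by its own probes.

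The choroid plexus is a folded sheet of cuboidal epithelium around a core of fenestrated capillaries, mural cells, fibroblasts and macrophages, and it hangs into the brain ventricles. Its epithelium secretes cerebrospinal fluid through ion pumps, exchangers and water channels, exports transthyretin and growth factors into that fluid, and closes the blood-cerebrospinal fluid barrier with tight junctions. The stroma and the epithelial surface hold antigen-presenting cells, and the tissue is a known gate for immune cells into the ventricles after injury.

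The members matched their label on markers that the rule had not used. Sostdc1, Cldn2, Kcne2, Aqp1, Slc4a5, Prlr, Enpp2 and Ecrg4 together reached 23620 CPM in members at 3 days and 23326 CPM at 28 days, against 156 and 168 CPM in the remaining bins. Enpp2 made up most of each of these sums, and Cldn2, Kcne2, Aqp1, Slc4a5, Prlr and Enpp2 are given singly below. The shares of the rule genes only describe the selection, which was made on them. Of all Ttr UMIs of a section, 97.4% at 3 days and 97.6% at 28 days lay in members, and the other 6 rule genes had 81.9% and 82.2% of their UMIs there. Ttr, the gene of transthyretin, made up a median of 17.7% of the UMIs of a member at 3 days and 18.7% at 28 days. Close to the threshold the bins were mixed. In members with Ttr at 2 to 4% of UMIs (71 bins at 3 days, 134 at 28 days) the 8 marker genes stood at 4841 and 4590 CPM, and in bins just outside, with Ttr at 1 to 2% (131 and 227 bins), at 2509 and 2285 CPM. The sums near the threshold were not split by gene. A further 10 bins at 3 days and 40 at 28 days passed the Ttr cut but had fewer than 2 UMIs of the other 6 genes around them, and these were not members.

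Members were deeper than the tissue around them. Their median was 1558 UMIs at 3 days and 1145 at 28 days, against 845 and 606 in the remaining bins. The member UMIs outside the rule genes summed to 1704916 at 3 days and 1324852 at 28 days, out of 120615873 and 82422389 UMIs in all bins of the 2 sections.

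The members formed 3 patches in each section, which the map of the sections shows. One lay near the midline and one on each side. At 3 days the lateral patch of the injured side had 483 bins, the midline patch 511 and the lateral patch of the opposite side 283. At 28 days these patches had 386, 534 and 417 bins. The remaining 9 members at 3 days lay close together on the injured side, and the remaining 10 at 28 days were spread over several places. The midline patches were compact, with 65.9% and 60.1% of their bins enclosed by 8 member neighbours, while the lateral patches were narrow bands in which 54.5% and 36.4% at 3 days, and 43.5% and 40.05% at 28 days, on the injured and the opposite side, were so enclosed.

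**Figure D1:**
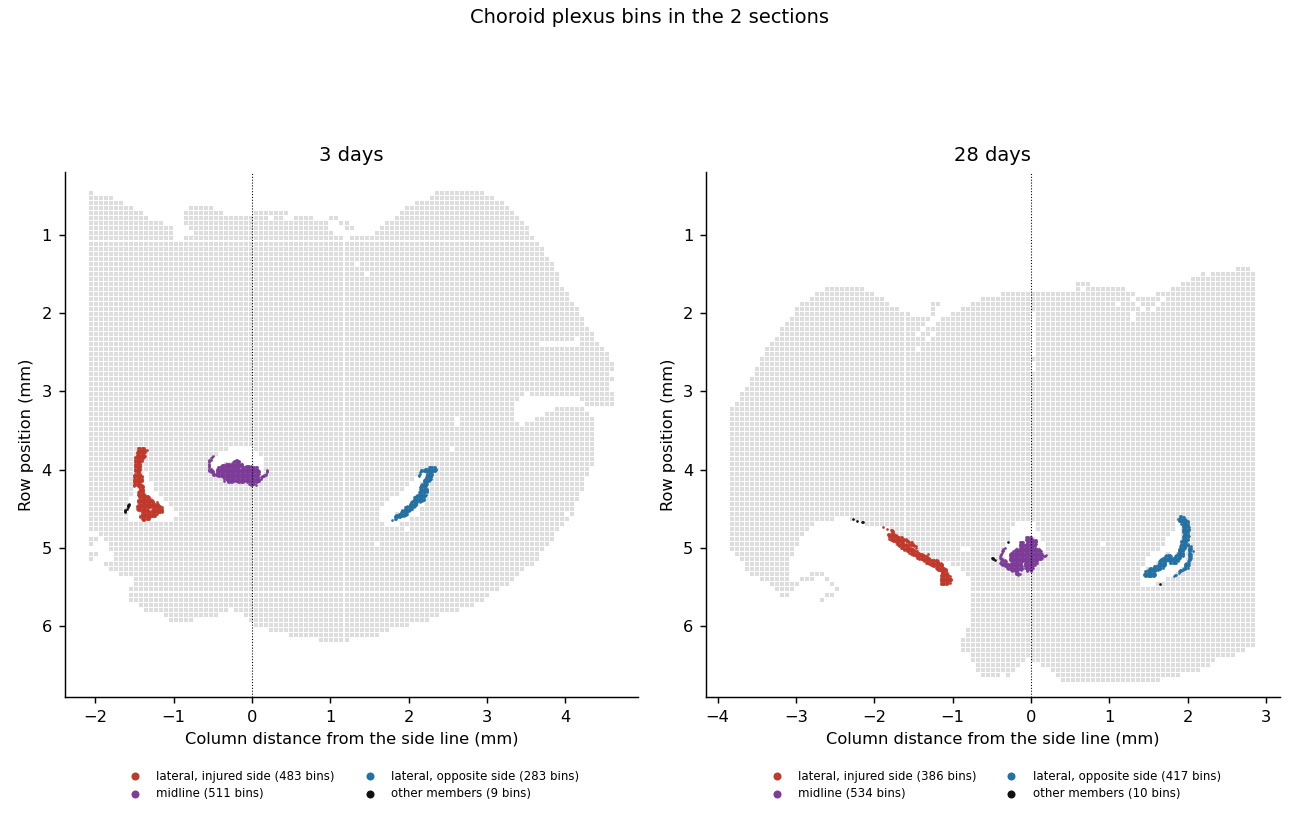
Positions of choroid plexus bins in the section at 3 days (left) and at 28 days (right). The x axis is the distance in mm from the line that divides the sides, with the injured side at negative values, and the y axis is the row position in mm. Coloured points are member bins by patch, and grey squares are blocks of tissue that hold other bins with at least 100 UMIs. Each section shows 1 patch near the line and 1 lateral patch on each side, and the lateral patch of the injured side at 28 days borders an area without tissue.

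The surroundings of the patches differed. Within 10 bins of the midline patch, genes of the medial habenula (Tac2, Nwd2, Gpr151) reached 581 CPM at 3 days and 1103 CPM at 28 days, against 67.3 and 75.7 CPM in the remaining bins. Striatal genes reached 820 CPM near the lateral patch of the injured side and 1217 CPM near that of the opposite side at 3 days. At 28 days the same genes stood at 158 CPM near the patch of the injured side and at 1345 CPM near its opposite partner. There, 62.0% of the positions within 10 bins of the patch of the injured side held no bin, against 26.0% and 32.0% around the midline and opposite patches and 27.2 to 38.4% around the 3 patches at 3 days. Macrophage and microglia genes in the tissue beside the patches were also highest there, at 2959 CPM against 311 and 561 CPM, whereas at 3 days they stood at 1033, 1040 and 375 CPM beside the injured-side, midline and opposite-side patches.

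The dividing line was set at array column 130 at 3 days and 240 at 28 days, which was also the median column of UMIs of Gbx2, a gene of the thalamus on both sides of the midline. By this line, 907 members (70.5%) at 3 days and 775 (57.5%) at 28 days lay on the injured side, where 32.7% and 47.9% of all bins lay. The captured area reached 2.08 mm from the line on the injured side and 4.62 mm on the other at 3 days, and 3.84 and 2.86 mm at 28 days. The midline patch crossed the line, with 415 of its 511 bins on the injured side at 3 days and 380 of 534 at 28 days, so the share depends on where the line is drawn. For this reason the sides were compared chiefly through the lateral patches. These did not mirror each other. On the injured and the opposite side, their median columns lay 1408 and 2160 µm from the line at 3 days. At 28 days the distances were 1408 and 1904 µm. Within 10 bins of them at 3 days, genes of hippocampal CA fields had 382 and 51.9 CPM and oligodendrocyte genes 9451 and 20435 CPM. Side and position cannot be told apart in these comparisons.

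Against the rest of the section, members carried the transport and secretion genes of the plexus epithelium at both times. This comparison describes the selected bins and was not tested, since the members were chosen in the same bins. Of 16157 genes with enough UMIs at 3 days, 3849 (23.8%) were higher in members and 3478 (21.5%) lower. At 28 days, 3579 (22.9%) of 15633 were higher and 3495 (22.4%) lower. All 13 genes of a list of epithelial identity were higher in both sections, with a median log2 ratio of 8.08 at 3 days and 8.41 at 28 days. Mfrp, which encodes a frizzled-related membrane protein, had 1222 CPM in members at 3 days and 1204 CPM at 28 days, with 0.88 and 0.98 CPM elsewhere. Lmx1a and Msx1, transcription factors of the roof plate from which the plexus grows, stood at 85.0 and 612.9 CPM at 3 days and at 99.6 and 551.8 CPM at 28 days, against at most 4.82 CPM in the rest.

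Ion and water transport genes, which drive fluid secretion, were nearly absent outside the members in several cases. Slc4a5, a sodium bicarbonate cotransporter of this epithelium, had 482 CPM at 3 days and 504 CPM at 28 days in members, against 0.26 and 0.51 CPM elsewhere. Kcne2, a potassium channel subunit, had 435 and 370 CPM in members, and Aqp1, the apical water channel, 443 and 502 CPM. In both sections 13 of 14 genes of this list were higher, with medians of 4.04 and 3.91. The exception was Atp1b1, a subunit of the sodium pump that neurons also use, with 1392 and 1421 CPM in members and 1394 and 1406 CPM in the rest.

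Among secreted factors, 8 of 10 genes were higher in members at 3 days and 9 at 28 days. Enpp2, which encodes autotaxin, had 18482 and 18069 CPM against 137 and 146 CPM in the rest. Igf2, a growth factor for neural progenitors, had 2228 and 3003 CPM. Of the receptors, 6 and 7 of 9 were higher: Htr2c, the serotonin receptor 2C, stood at 595 and 599 CPM, and Prlr, the prolactin receptor, at 945 and 807 CPM. Solute and drug transporters were higher for 13 of 15 measured genes in each section, including Slc13a4, a sulfate carrier (653 and 615 CPM), and Slco1c1, a thyroid hormone carrier (633 and 602 CPM). Tight junction genes were higher for 8 and 7 of 9, led by Cldn2, the claudin of leaky transporting epithelia, with 206 and 195 CPM against 0.38 and 0.21 CPM.

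The lists of other cell types showed what else the bins held. All 8 neuronal genes were lower in members at both times (median -4.96 and -5.16), as were all 7 oligodendrocyte genes (-4.49 and -2.53). Of the plexus core, 6 and 4 of 8 endothelial genes and 4 and 3 of 8 mural genes were higher in members. Of 9 fibroblast genes 5 and 6 were, and of all genes 23.8% and 22.9%. All 10 genes of ependyma and motile cilia were higher as well (3.52 and 3.64). The macrophage and microglia list, which pools both cell types, summed lower in members, with 299 CPM against 418 CPM in the rest at 3 days. At 28 days it summed to 259 CPM in members and 564 CPM in bins 16 µm away. Against only the bins within 3 bins of a member, the medians at 3 days were -0.10 for ependymal, -0.09 for mural and -0.54 for fibroblast genes, so that the patch surroundings held these genes too. Among the genes lowest in members were Galnt17, with 0 UMIs in members and 10503 elsewhere at 3 days, at least 50.4-fold lower against a floor of 3 UMIs, and Avp, the vasopressin gene, with 0 UMIs at 28 days, at least 43.0-fold lower.

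The levels of identity genes dropped steeply at the patch borders, which the rule itself set, and stayed above the rest of the section (81.7 CPM at 3 days) beyond them, as the plot of gene lists by distance shows. The sum of the 13 identity genes was 7882 CPM in members at 3 days, 574 CPM in bins 16 µm away and 251 CPM at 32 µm. At 28 days the same sums were 8034, 501 and 265 CPM. Ependymal and fibroblast genes took the opposite course at the border and were highest in the bins directly beside members, at 3575 and 2306 CPM at 3 days and 2005 and 1290 CPM at 28 days. Neuronal genes climbed with distance from 181 CPM in members to 3081 CPM at 144 to 256 µm at 3 days, and from 165 to 4275 CPM at 28 days.

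**Figure D2:**
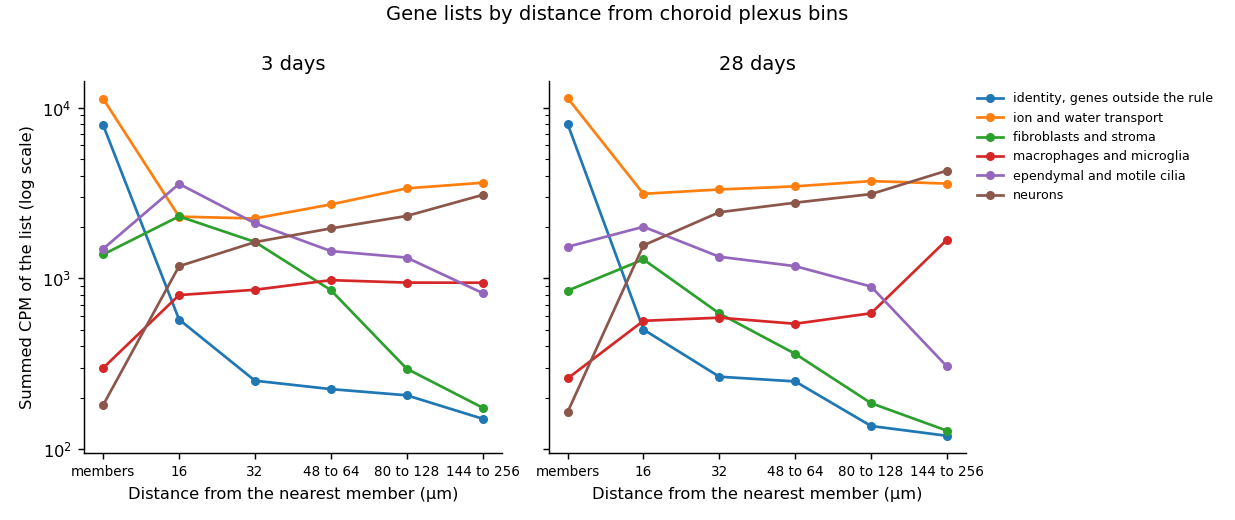
Summed CPM of 6 gene lists (y axis, log scale) in members and in other bins by distance from the nearest member in µm (x axis), at 3 days (left) and 28 days (right). Identity genes drop from 7882 to 574 CPM within 16 µm at 3 days and from 8034 to 501 CPM at 28 days, while ependymal and fibroblast genes peak beside the members.

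Inside the patches, enclosed bins and border bins differed in the same sense. Enclosed bins had 8 member neighbours (703 bins at 3 days, 656 at 28 days), and border bins at most 4 (155 and 188 bins). Of 5945 genes at 3 days, 262 (4.41%) were higher inside and 174 (2.93%) lower, and at 28 days 347 (7.24%) and 192 (4%) of 4795. Vessel genes led inside at 3 days: Heg1 had a log2 ratio of 2.87, Egfl7 of 2.56, and Pecam1, an adhesion molecule of endothelium, of 2.41. At 28 days Igfbp3 had 143 UMIs inside and 0 at the border, at least 4.95-fold higher, and Egfl7 stood at 2.65. Astroglial genes led at the border, with Gfap at -4.55 and -3.22, and at 28 days the myelin gene Mobp stood at -4.85.

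The ependyma, the ciliated lining of the ventricle wall, was compared as well. Its bins were taken from the whole section and were not limited to those beside the plexus. Ependymal bins were set by Foxj1, Tekt1, Ccdc153 and Tmem212 (1490 bins at 3 days, 1111 at 28 days), and these 4 genes are not reported against them. Of 12118 genes at 3 days, 1385 (11.4%) were higher in members and 2813 (23.2%) lower, and at 28 days 1295 (11.2%) and 2520 (21.7%) of 11612. All 13 identity genes were again higher, with medians of 4.67 and 5.45. Genes of oxidative phosphorylation, the mitochondrial machinery that feeds ion pumping, were higher in members for 10 of 16 at 3 days (median 1.52) and 12 of 16 at 28 days (median 1.26). Cldn1, another barrier claudin, had 206 UMIs in members and 0 in ependymal bins at 3 days, at least 61.8-fold higher. Defb11, a beta-defensin, had 162 and 0 UMIs at 3 days and 165 and 0 at 28 days, at least 48.6-fold and 45.3-fold higher.

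At 28 days the genes lowest in members against ependymal bins were markers of reactive and phagocytic cells. Lcn2, the acute-phase protein lipocalin-2, had 1 UMI in members and 776 in ependymal bins. Gpnmb, a gene of lipid-laden phagocytes, had 15 and 1502 UMIs, and C3, the central complement component, 16 and 1569 UMIs. Serpina3n, a protease inhibitor of reactive astrocytes, had 8 and 796 UMIs. The macrophage and microglia list as a whole summed to 259 CPM in members and 4451 CPM in ependymal bins at 28 days, against 299 and 503 CPM at 3 days. In bins 16 µm from a member it summed to 564 CPM at 28 days, so the ependymal value is not that of the tissue directly beside the plexus.

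Midline and lateral plexus differed in some genes in both sections. At 3 days 69 (0.952%) of 7245 genes were higher in the midline patch than in the pooled lateral patches and 75 (1.04%) lower, and at 28 days 99 (1.56%) and 86 (1.36%) of 6342. Among 6266 genes measured in both sections, 36 were higher at the midline at 3 days and 94 at 28 days, and 21 were shared, which is 58.3% of the first list and 22.3% of the second. Of the genes lower at the midline, 49 and 80, 12 were shared, or 24.5% and 15% of the lists. In enclosed bins alone 24 genes were higher and 48 lower at 3 days, and 38 and 55 at 28 days. Among the 4309 genes measured there in both sections, 4 of 10 genes higher at 3 days and 6 of 26 lower were shared with 28 days, and 14 of those 26 kept their sign, with a median of -0.16 at 28 days. In the list of identity genes none of 13 passed the 2-fold mark in either direction in either section, a count near the share of all genes.

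Tns4, which encodes tensin 4, an adaptor of focal adhesions, was the clearest midline gene. In the order injured-side lateral, midline and opposite-side lateral, it had 40.8, 224 and 18.9 CPM at 3 days and 40.3, 266 and 21.4 CPM at 28 days. The midline patch was above both lateral patches by a log2 ratio of 2.72 (2.19 to 3.34) in the earlier section and 3.06 (2.48 to 3.73) in the later one. The enclosed bins alone gave 2.69 and 2.94. Tbc1d1, a Rab GTPase-activating protein, followed the same order, with 20.4, 85.6 and 6.30 CPM at 3 days and 8.48, 112 and 9.49 CPM at 28 days. Cltb, a clathrin light chain, stood at 140, 353 and 132 CPM and then at 136, 464 and 112 CPM. Slit2, a secreted guidance cue, had 91.1, 160 and 56.7 CPM and then 59.4, 212 and 75.9 CPM. For these 4 genes no lateral patch reached the midline patch of its own section. In the tissue beside the patches the ratios lay at or below 0.35 at both times, apart from Slit2 at 28 days with 48.6 CPM beside the midline and 23.9 CPM beside the lateral patches.

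Apod, which encodes the lipid carrier apolipoprotein D, was high at the midline, and lower in enclosed than in border bins of all patches (-2.28 at 3 days and -1.93 at 28 days). It had 267, 1789 and 217 CPM at 3 days and 314, 853 and 173 CPM at 28 days, with ratios of 2.83 and 1.78. In enclosed bins the ratios were 1.72 and 2.09. Dcn, a proteoglycan of fibroblasts, had ratios of 1.99 and 1.33 that came to 0.98 and 0.84 in enclosed bins, and in the tissue beside the patches its midline ratio was 3.91 at 3 days and -0.83 at 28 days. The fibroblast list was higher at the midline for 3 of 7 measured genes at 3 days and 3 of 4 at 28 days. Whether stroma of the neighbouring tissue contributed was not tested.

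Of the 12 genes lower at the midline in both sections, 6 are given here. Sfrp1, a secreted frizzled-related protein, had 159, 50.3 and 217 CPM at 3 days and 250, 72.3 and 261 CPM at 28 days, and both lateral patches were well above the midline in each section. Its log2 ratio of midline to lateral was -1.81 (-2.38 to -1.31) and -1.80 (-2.41 to -1.28), and -1.98 and -1.85 in enclosed bins. Sfrp5, its relative, had 42.4, 17.7 and 37.8 CPM and then 70.0, 18.6 and 52.2 CPM. Dmrt3, a transcription factor of the dorsal telencephalon, had 48.7, 16.3 and 81.9 CPM at 3 days. At 28 days it had 67.9 and 56.9 CPM in the lateral patches and 0 UMIs at the midline, at least 8.97-fold lower. Rdh10, which makes retinaldehyde from retinol, had 123, 55.7 and 173 CPM and then 182, 58.3 and 145 CPM. Bst2, an interferon-induced surface protein, had 143, 58.4 and 296 CPM and then 238, 74.6 and 176 CPM. Col27a1, a fibrillar collagen, stood at 45.5, 23.1 and 145 CPM and then at 74.2, 21.0 and 90.2 CPM. In the tissue beside the patches the midline ratios of Sfrp1 were -1.52 and -2.46, and those of Dmrt3 -4.47 and -2.91. Rdh10 had -1.61 and -0.62 there, and Col27a1 -0.73 and -1.03. Those of Sfrp5 were -0.28 and 0.15, and those of Bst2 0.65 and -1.99. The part of neighbouring tissue in the patch levels was not tested.

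**Figure D3:**
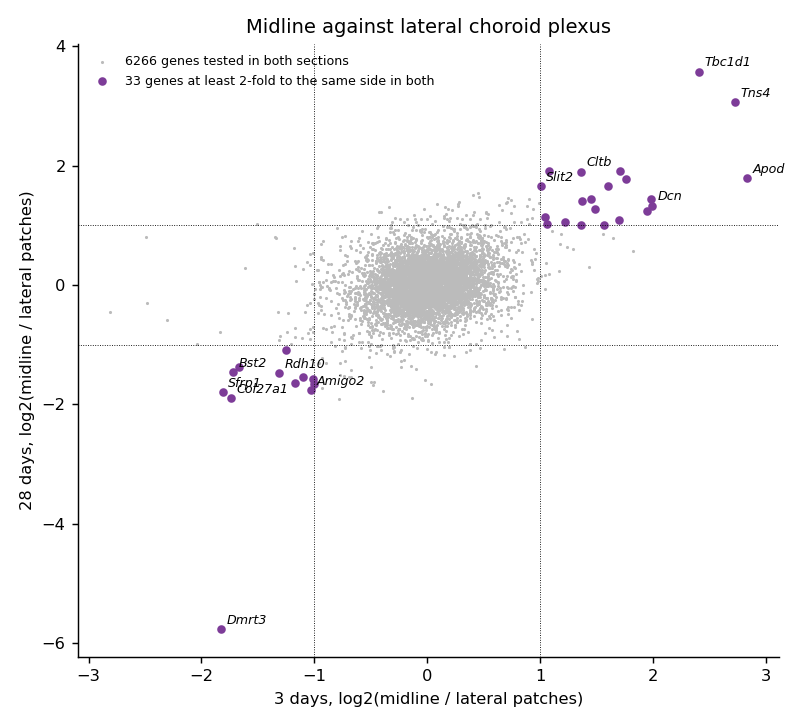
Log2 ratio of the midline patch to the lateral patches at 3 days (x axis) and at 28 days (y axis) for 6266 genes. Purple points are the 33 genes that were at least 2-fold apart to the same side in both sections, 21 higher and 12 lower at the midline, and dotted lines mark 2-fold. Dmrt3, with 0 midline UMIs at 28 days, is drawn at the value its pseudocount gives.

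Among secreted proteins, Igf2 had 2345, 1866 and 2921 CPM at 3 days and 3704, 1774 and 3480 CPM at 28 days. Igfbp2, a binding protein for such factors, had 3620, 2229 and 4515 CPM and then 4773, 2235 and 4342 CPM. The midline patch was lowest for both genes in both sections. At 28 days 3 of the 10 secreted genes were at least 2-fold lower at the midline, where 1.36% of all genes were. At 3 days none was, a count near the share of all genes (1.04%).

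Between the sections few genes of any kind passed 2-fold in the sums over all members. Of 9101 genes, 21 (0.231%) were higher at 28 days than at 3 days and 42 (0.461%) lower. None of the measured genes of epithelial identity (13), ion and water transport (14), secretion (10), receptors (8), solute carriers (14), tight junctions (7) or oxidative phosphorylation (16) passed 2-fold. That count is near the share of all genes and is not a result about these lists. Their medians lay between -0.13 and 0.14. Sums over all members can hide a shift within a patch, as for Slc29a4, given below. Genes whose 3 patches at 28 days were all above the 3 patches at 3 days numbered 441 (4.85%), and 439 (4.82%) had all 3 below. Of the other lists, heat shock and chaperone genes (11 measured), iron handling (8), ependymal genes (10), astrocytes (7) and neurons (3) had no gene past 2-fold, again near the share of all genes. In the interferon, retinoid and endothelial lists 1 gene each was lower (of 5, 7 and 7), in the fibroblast list 2 of 8, and in the mural list 1 of 7 was higher. In these sums over bins, fewer cells of a type and less RNA per cell cannot be told apart.

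Antigen presentation genes were lower at 28 days. Of the 9 genes of this list, 5 were at least 2-fold lower and none higher, where 0.461% of all genes were lower. Their median was -1.06, while over the remaining bins of the sections the same genes had a median of 0.61 in the other direction. In the bins within 3 bins of a member the list summed to 1013 CPM at 3 days and 420 CPM at 28 days. The surroundings of the patches did not move alike: in the tissue 2 to 10 bins away, Cd74, H2-Aa, H2-Ab1 and H2-Eb1 summed to 18.3, 365 and 20.3 CPM beside the injured-side, midline and opposite-side patches at 3 days and to 458, 73.3 and 41.4 CPM at 28 days. In 6 of 9 all 3 patches at 28 days lay below all 3 at 3 days, as in 4.82% of all genes. The patches of a section come from 1 animal and are not replicates. Cd74, the invariant chain that escorts class II molecules, had 292, 415 and 365 CPM in the injured-side, midline and opposite-side patches at 3 days and 84.8, 196 and 166 CPM at 28 days. Its ratio over all members was -1.28 (-1.52 to -1.05), and the patches of the 2 sections did not overlap.

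The class II chains were lower as well. H2-Aa had 209, 330 and 331 CPM at 3 days and 70.0, 159 and 121 CPM at 28 days. H2-Eb1 had 237, 304 and 325 CPM and then 67.9, 161 and 85.4 CPM, with a ratio of -1.44 (-1.72 to -1.16). H2-Ab1 came closest to overlap, with 165, 193 and 151 CPM and then 46.7, 149 and 71.2 CPM, and a ratio of -0.98. Within each section the midline patch was never the lowest of the 3 for these chains, and at 28 days it was the highest for Cd74 and all of them. In enclosed bins this order did not hold. There, at 28 days, the opposite-side and midline patches had 286 and 183 CPM of Cd74 and 218 and 163 CPM of H2-Aa. For H2-Ab1 they had 140 and 127 CPM, and for H2-Eb1 151 and 157 CPM. At 3 days the midline was the lowest in enclosed bins for H2-Ab1 and H2-Eb1. Class I heavy chains were lower too: H2-K1 had 102, 106 and 120 CPM and then 50.9, 55.9 and 45.1 CPM, and H2-D1 had 41 UMIs in members at 3 days and 15 at 28 days. B2m, the class I light chain, overlapped between the sections, with 84.8, 54.4 and 59.9 CPM and then 44.5, 18.6 and 83.0 CPM, and Tapbp, a peptide-loading chaperone, had a ratio of -0.09 (-0.32 to 0.14).

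**Figure D4:**
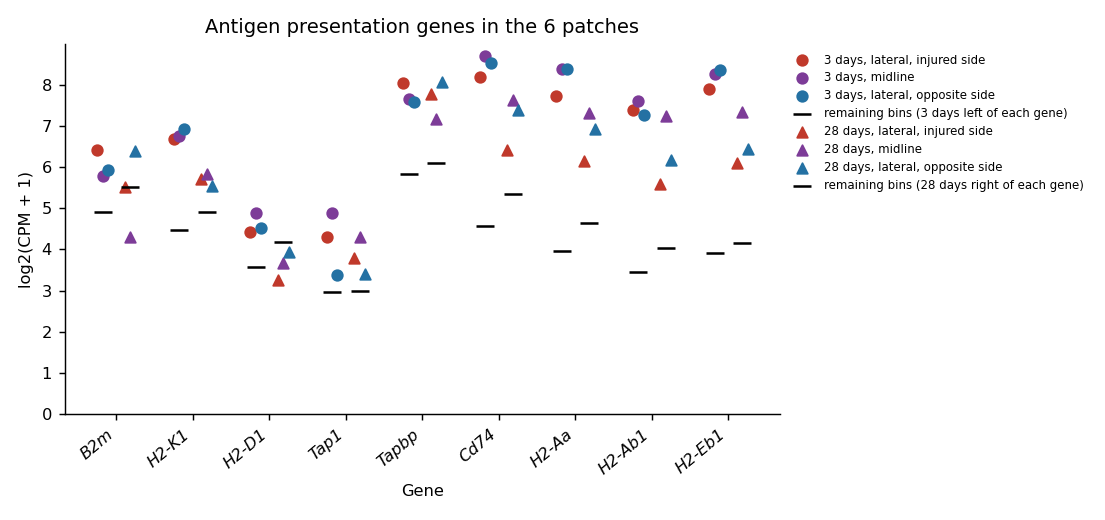
Level of 9 antigen presentation genes, as log2(CPM + 1) on the y axis, in each of the 3 patches at 3 days (circles) and 28 days (triangles). Black bars give the remaining bins of each section, which hold no members. For Cd74 and the 3 class II chains all triangles lie below all circles, while the black bars are higher at 28 days.

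Class II UMIs were uneven over the bins. Cd74, H2-Aa, H2-Ab1 and H2-Eb1 together had a UMI in 43.4% of members at 3 days and 22.0% at 28 days. After each bin with enough UMIs was thinned to 500 UMIs, which left 1195 and 1024 bins, the shares were 27.7% and 13.5%. The highest 10% of member bins held 61.5% of these UMIs at 3 days and 73.1% at 28 days. In bins with a UMI of any of 9 macrophage genes (Mrc1, Csf1r, Cd163, Lyve1, Pf4, Aif1, Cd68, C1qa and Lyz2; 270 and 200 bins) the 4 genes summed to 2542 CPM at 3 days and 948 CPM at 28 days, and in bins without one to 656 and 342 CPM. The 9 macrophage genes themselves summed to 243 CPM in members at 3 days and 211 CPM at 28 days, and Mrc1, the mannose receptor of border macrophages, had a ratio of 0.83 (0.02 to 1.68). The 6 T cell genes had between 0 and 4 UMIs each in the members of a section.

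Of the acute-phase and inflammatory list, 2 of 8 measured genes were lower at 28 days and none higher, where 0.461% of all genes were lower. Icam1, an adhesion receptor for leukocytes, had 89.5, 39.4 and 28.4 CPM in the injured-side, midline and opposite-side patches at 3 days and 27.6, 23.3 and 14.2 CPM at 28 days, a ratio of -1.36 (-2.03 to -0.77) over members. The injured-side patch at 3 days was the highest of the 6. Vcam1, its counterpart for other leukocytes, showed no such shift, with 286 CPM in members at 3 days and 295 CPM at 28 days. C3 had 98 UMIs in members at 3 days and 16 at 28 days, a ratio of -2.21 (-3.11 to -1.48), while in the remaining bins it was higher at 28 days by 2.48. Lcn2 was close to absent from members, with 5 UMIs at 3 days and 1 at 28 days, although in the remaining bins it went from 4.94 to 40.1 CPM. Saa3, Il6 and Ccl2 had 0 to 4 UMIs each.

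The genes higher at 28 days were few. Mobp and Mbp, which encode myelin proteins, had ratios of 2.65 (2.204 to 3.16) and 1.68 (1.398 to 1.97). In the oligodendrocyte list 4 of 6 measured genes were higher, where 0.231% of all genes were. The median of the list was 1.79 against -0.00 in the remaining bins. Mobp had 36.1, 9.51 and 47.3 CPM in the patches at 3 days and 223, 37.3 and 235 CPM at 28 days, and at 28 days it had 941 CPM in border bins and 32.1 CPM in enclosed bins. In enclosed bins the ratio of Mbp between the sections was 0.63. The part of neighbouring tissue in these values was not tested. Bhlhe41, a repressor in the circadian clock, differed in enclosed bins too: it had 62.8, 48.9 and 85.1 CPM in the patches at 3 days and 144, 114 and 164 CPM at 28 days. Its ratio was 1.17 (0.82 to 1.53) over all members and 1.60 in enclosed bins, against 0.26 in the remaining bins. Dbp, an output gene of the same clock, had 193, 177 and 208 CPM and then 356, 368 and 351 CPM, without overlap, with a ratio of 0.93 (0.72 to 1.14) that stayed under 2-fold.

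Among the highest ratios between the sides at 3 days were those of immediate early genes, transcription factors and phosphatases that cells switch on within minutes of a stimulus. At 3 days all 7 measured genes of this list were higher in the lateral patch of the injured side than in that of the opposite side, with a median of 3.29, where the non-member bins of the 2 sides gave 0.37. Over all 5080 genes of this comparison, 108 (2.13%) were higher on the injured side and 38 (0.748%) lower. By the dividing line, with the midline patch included, 117 (1.61%) of 7278 genes were higher and 23 (0.316%) lower.

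Promoters of 3 of these genes are given because the genes were high together in 1 patch and their promoters hold a common run of letters. A promoter of 300 bases was read from RefSeq (GRCm38.p6) for 7 of the 9 genes of the list, without Egr1 and Ier2. The capitals mark TGACG, the core of the cAMP response element, on either strand; it was searched after the sequences had been read, and it occurred in 6 of the 7 and in 20.8% of 32851 promoters of the same length. The palindrome TGACGTCA, which holds TGACG on each strand, occurred in Dusp1 alone among the 7, and in 1.79% of all promoters. Among the 7, Jun was the gene without a match to either. A match is a description of the letters and not of binding. Fos lies at chr12:85473640-85473939 (plus strand), Junb at chr8:84978699-84978998 (minus strand) and Dusp1 at chr17:26508423-26508722 (minus strand), each window running from 250 bases before to 50 bases after the gene start.
Fos: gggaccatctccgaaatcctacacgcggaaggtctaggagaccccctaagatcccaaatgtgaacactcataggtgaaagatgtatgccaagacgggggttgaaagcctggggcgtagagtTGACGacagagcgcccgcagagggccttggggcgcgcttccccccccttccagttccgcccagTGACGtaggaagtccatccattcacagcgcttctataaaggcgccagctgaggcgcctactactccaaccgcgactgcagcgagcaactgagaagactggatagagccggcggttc
Junb: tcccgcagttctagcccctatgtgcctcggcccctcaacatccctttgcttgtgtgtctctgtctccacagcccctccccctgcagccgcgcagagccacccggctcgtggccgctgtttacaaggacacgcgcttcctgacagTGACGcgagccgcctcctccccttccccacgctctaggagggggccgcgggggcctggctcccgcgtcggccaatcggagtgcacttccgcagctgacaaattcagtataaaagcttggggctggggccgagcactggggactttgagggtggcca
Dusp1: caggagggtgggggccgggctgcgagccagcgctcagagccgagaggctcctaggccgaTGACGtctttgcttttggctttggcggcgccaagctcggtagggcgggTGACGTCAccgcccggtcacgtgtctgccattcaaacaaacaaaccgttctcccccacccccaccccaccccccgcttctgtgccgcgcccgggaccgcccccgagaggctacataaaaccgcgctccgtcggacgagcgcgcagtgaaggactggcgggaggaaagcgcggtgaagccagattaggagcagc

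Egr1, a zinc finger factor, had 573 CPM in the lateral patch of the injured side at 3 days, 68.0 CPM at the midline and 6.30 CPM in the lateral patch of the opposite side (365, 50 and 2 UMIs). The injured-side patch was far above the others, with a log2 ratio of 6.19 (4.64 to 9.56) to its opposite partner. Fos had 294, 21.7 and 6.30 CPM (187, 16 and 2 UMIs), with a ratio of 5.22 (3.67 to 8.60). At 28 days the order was not kept. Egr1 had 46.7, 107 and 78.3 CPM (22, 46 and 33 UMIs) and Fos 12.7, 21.0 and 33.2 CPM (6, 9 and 14 UMIs). The injured-side patch had the lowest value for both, but Fos had too few UMIs for a ratio between the lateral patches. The interval of Egr1 between them, given below, includes no change.

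Junb, a partner of Fos, had 130, 36.7 and 9.45 CPM at 3 days, a ratio of 3.57 (2.19 to 6.09). Ier2, a nuclear early response factor, had 138, 17.7 and 12.6 CPM, a ratio of 3.29 (2.05 to 5.36). Dusp1, a phosphatase that shuts off MAP kinases, had 188, 55.7 and 50.4 CPM, and its ratio was 1.86 (1.14 to 2.75). For these 3 genes the injured-side patch was the highest and the opposite-side patch the lowest. Nr4a1, an orphan nuclear receptor, had 121, 31.3 and 28.4 CPM and Jun 115, 44.8 and 28.4 CPM. Of 14 Fosb UMIs in members at 3 days, 13 lay in the lateral patch of the injured side, and the midline and opposite-side patches had 0.

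**Figure D5:**
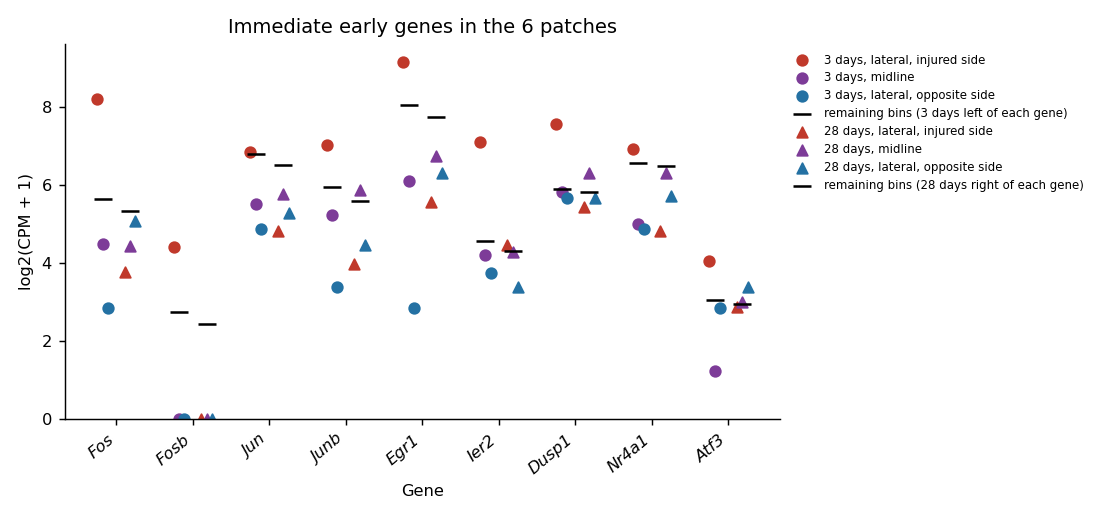
Level of 9 immediate early genes, as log2(CPM + 1) on the y axis, in each of the 3 patches at 3 days (circles) and 28 days (triangles). Black bars give the remaining bins of each section. At 3 days the red circle of the injured-side lateral patch is the highest of the 3 patches for every gene, and at 28 days the red triangle is not set apart in this way.

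The signal was not carried by the border of the patch, and it was uneven along the patch. Egr1 had a UMI in 45.5% of the bins of the injured-side patch, 8.61% of midline bins and 0.707% of opposite-side bins, and after thinning to 500 UMIs in 23.5%, 4.21% and 0.395%. In enclosed bins alone it had 616, 50.8 and 7.73 CPM. Along the patch, cut into 4 bands of rows, its level was 733, 951, 595 and 288 CPM. Fos had 442, 513, 278 and 114 CPM in these bands, and Ier2 214, 235, 94.5 and 82.3 CPM. In the tissue within 2 to 10 bins of the patches Egr1 had 275, 55.6 and 174 CPM, so that the neighbours of the opposite-side patch were well above that patch itself. The 9 genes of the list summed to 1596, 277 and 148 CPM in the patches and to 1250, 588 and 589 CPM beside them. Beside the injured-side patch Jun (264 CPM) and Atf3 (61.5 CPM) were higher than in it (115 and 15.7 CPM). The other genes of the list were higher in that patch than beside it.

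Vessel and stroma genes also differed between the lateral patches. At 3 days 3 of 5 measured mural genes were higher in the lateral patch of the injured side than in the opposite patch. So were 3 of 4 of the fibroblast list and 2 of 4 of the endothelial list, against 2.13% of all genes. The endothelial list summed to 608 CPM in the injured-side patch, 677 CPM at the midline and 309 CPM in the opposite patch. In the same order the mural list summed to 716, 594 and 372 CPM and the fibroblast list to 1294, 1821 and 589 CPM. Endothelial and fibroblast genes were thus highest at the midline. Tagln, an actin-binding protein of smooth muscle, had 166, 16.3 and 22.1 CPM, and Adamts1, an early-induced protease, 291, 128 and 53.6 CPM. The part of vessel and stroma content in those levels was not tested. Zfp36, which destabilises cytokine mRNAs, had 306, 87.0 and 53.6 CPM, a ratio of 2.48 (1.80 to 3.32). A2m, a protease inhibitor of plasma, had 284, 139 and 69.3 CPM.

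None of the 13 identity genes, 14 ion transport genes or 15 measured oxidative phosphorylation genes passed 2-fold between the lateral patches at 3 days, and of 12 solute carriers 1 did, counts near the share of all genes. That was Slc29a4, a monoamine transporter, with 352, 477 and 914 CPM in the injured-side, midline and opposite-side patches at 3 days, a ratio of -1.38, and 776, 422 and 747 CPM at 28 days. None of the 7 measured antigen presentation genes passed 2-fold between the lateral patches at 3 days. That count is near the share of all genes too (2.13% higher and 0.748% lower). The median of these 7 genes was -0.24, and in the non-member bins of the 2 sides it was 1.33.

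At 28 days fewer genes were higher in the patch of the injured side than lower. Of 4742 genes, 14 (0.295%) were higher in the lateral patch of the injured side and 41 (0.865%) lower, and by the dividing line 12 (0.189%) and 39 (0.614%) of 6354. In enclosed bins the order turned, with 19 higher and 17 lower in the lateral patches and 28 and 16 by the line. Of the genes measured in both sections, 68 were higher on the injured side at 3 days and 12 (0.266%) of 4517 at 28 days, and none was shared. Of the lower genes, 38 and 36 (0.797%), 5 were shared. With shares this small the absence of a shared higher gene is not a result about them. Only Egr1 of the immediate early list had enough UMIs for the comparison at 28 days, with a ratio of -0.74 (-1.60 to 0.08). Among genes with at least 100 UMIs the 4 lowest were Slc1a2, Cpe, Mt2 and Aldoc. Slc1a2, a glutamate transporter, had 33.9 CPM in the injured-side patch against 244 CPM in its partner, Cpe 42.4 and 223 CPM, Mt2 72.1 and 244 CPM, and Aldoc 123 and 382 CPM. The astrocyte list summed to 655 and 1084 CPM in these patches and the neuronal list to 42.4 and 233 CPM. In this section the injured-side patch bordered an area without bins on 62.0% of the positions around it, and the part of that border in these values was not tested.

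The difference between the sections in immediate early genes rested on the lateral patch of the injured side. Over all members 4 of 7 were lower at 28 days, where 0.461% of all genes were. The median of the list was -1.16, with Fos at -2.51 (-3.14 to -1.96) and Egr1 at -1.69 (-2.02 to -1.38). Without that patch in either section the median was 0.19, Fos stood at 0.05 and Egr1 at 0.76. Of all genes, 53 were then higher and 25 lower at 28 days.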

How the data were processed

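Gene expression was measured by Visium HD in 1 formalin-fixed, paraffin-embedded coronal section of 1 mouse per time point. The deposited files hold raw UMI counts per gene and per 16 µm bin, which the authors made with Space Ranger on mm10 (per the submitters' processing notes; versions are not given in the sources used here) and did not normalise. Bins with at least 100 UMIs were used. The members, the gene lists and the tests were chosen with earlier results of these data known, and the counts of each list therefore describe these sections.

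UMIs were summed over bins and scaled so that the UMIs outside the 7 rule genes summed to 1000000 (CPM). Genes with at least 50 UMIs over both sets entered a comparison (20 for members against the remaining or ependymal bins), a ratio of at least 2-fold was counted, and intervals are exact conditional binomial intervals at 95%. They cover counting error only. The floor for a count of 0 was 3 UMIs. Patches joined members within 3 bins and held at least 20. The genes named were the 15 highest and 5 lowest against the remaining bins by the smaller ratio of the 2 sections (at least 200 UMIs in each), the 10 highest and 10 lowest of the other comparisons (at least 100 UMIs), and all genes of the lists. For midline against lateral patches, genes past 2-fold in the same direction in both sections were also named, a rule set after the data were seen. Galnt17 and Avp are among the 5 lowest. The ratios and intervals were checked on simulated data. Python 3.11.15 with numpy 2.4.6, scipy 1.17.1, pandas 2.3.3 and matplotlib 3.10.9 was used, and edgeR 4.0.16 in R 4.3.3 gave the TMM scaling tried as an alternative.

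Alternatives were other thresholds of the rule (Ttr at 5% of UMIs, 4 UMIs in the block, 200 UMIs per bin), enclosed members only, other gene minimums, a pseudocount of 1 UMI, totals with the rule genes, TMM, the line shifted by 24 bins, nearby bins as the reference and leaving out a patch. The images' scale factors were not used. Promoters came from a RefSeq table of GRCm38.p6. No doublet caller was run, since a bin is not a cell.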

Additional observations from a re-analysis of the deposited data

Results flagged for a closer look

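For 2 genes the lateral patch of the injured side and that of the opposite side stood in opposite order at the 2 times, each by at least 2-fold. Snhg11, a non-coding host gene of small nucleolar RNAs, had a log2 ratio of injured over opposite side of 1.01 (0.19 to 2.00) at 3 days, from 58 and 14 UMIs, and of -1.52 (-2.32 to -0.80) at 28 days, from 22 and 57 UMIs. Adssl1, an enzyme of adenine nucleotide synthesis, had a ratio of -1.004 (-1.83 to -0.18) at 3 days, from 27 and 27 UMIs, and of 1.46 (0.60 to 2.47) at 28 days, from 44 and 14 UMIs. The difference between the times was not tested, as each time has 1 section, and the intervals cover counting error only.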

How the results depend on the processing

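Of 114 values recomputed under alternatives for 18 main values, 72 moved by less than the limit and 42 by more. Without the lateral patch of the injured side the genes higher and lower at 28 days numbered 53 and 25, the immediate early median was 0.19, Fos stood at 0.046 and Egr1 at 0.76. Without the lateral patch of the opposite side 75 were lower. With at least 200 UMIs per gene these counts were 4 and 11, and with no minimum 1740 and 1644. For members on the injured side at 3 days, higher genes numbered 70 and 220 with the line moved 24 bins towards and away from that side, 60 in enclosed lateral bins, 9 at 200 UMIs and 1025 with no minimum. Lower genes numbered 55 with the line moved away, 38 in lateral patches, 1 at 200 UMIs and 1456 with no minimum. At 28 days, higher genes numbered 28 in enclosed bins, 57 with the line moved away, 19 in enclosed lateral bins, 1 at 200 UMIs and 1632 with no minimum. Lower genes there numbered 24 with Ttr at 5%, 16 in enclosed bins, 129 with the line moved towards the injured side, 17 in enclosed lateral bins, 0 at 200 UMIs and 2194 with no minimum. With the line moved towards the injured side, Nnat (0.29), Ccdc153 (0.69) and Cpe (0.0095) at 3 days and Dcn (-0.15) at 28 days changed sign. The share of members on the injured side was then 42.9% at 3 days and 29.5% at 28 days, and with the line moved away 78.0% and 69.0%. Against nearby bins, 1305 and 1500 genes were higher in members, and the medians of ependymal (-0.10), mural (-0.088) and fibroblast genes (-0.54) at 3 days and fibroblast genes at 28 days (-0.13) changed sign. At 200 UMIs per gene 2363 genes were higher in members than in the rest at 28 days. In enclosed bins the genes higher and lower at the midline numbered 24 and 48 in the earlier section, 38 and 55 in the later, and at 200 UMIs 7 and 8, and 5 and 16. The cause of these shifts was not tested, except that gene minimums and enclosed bins leave fewer genes or UMIs by construction. Of 721 recomputed values of named genes 649 kept within the limit, 66 moved and 6 reversed, and of 1098 list medians 824, 269 and 5. With 1 section per time, depth bounds only the counting error, and genes under the UMI minimum of a comparison have no ratio in it.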

Other observations

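Members of the 2 sections had 5 Lcn2 UMIs in all at 3 days and 1 at 28 days, and 4 and 0 UMIs of Saa3. The 8 genes of cell division tested summed to 126 CPM in members at 3 days and 108 CPM at 28 days, and the 4 haemoglobin and erythroid genes to 14.7 and 12.8 CPM.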
